A study of Mus musculus with 36 samples.

Results

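The transcripts of 10 genes for pancreatic digestive enzymes and their companions were followed along the mouse intestine: Prss2 (anionic trypsinogen), Cpa1 and Cpb1 (procarboxypeptidases), Cela1, Cela2a and Cela3b (elastases), Pnliprp1 and Pnliprp2 (lipase-related proteins), Pla2g1b (the pancreatic phospholipase A2) and Spink1 (a trypsin inhibitor). They were found through the gene symbols that the annotation gives to the probe sets, groups of short probes that measure 1 transcript together. The 10 genes, of 15964 named genes measured, had 16 probe sets among 36701: 7 on array set A, 3 on array set B and 6 on array set C. A single probe set stood for 6 of the genes, while Cpb1, Cela2a, Pnliprp1 and Pla2g1b had several. Probe sets of 1 gene share its annotation and are not replicates.

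Pancreatic acinar cells make digestive enzymes, most of them as inactive zymogens, store them in granules and release them into the duct that opens into the duodenum. In the duodenum the brush-border protease enteropeptidase (Tmprss15) turns trypsinogen into trypsin, and trypsin activates the other zymogens, while the hormone cholecystokinin (Cck) calls for their release. The enzymes reach the gut lumen as proteins, whereas the arrays measured messenger RNA. In mice the pancreas is a diffuse tissue that lies along the duodenal loop.

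The samples were whole segments from male mice of the strain Hsd:ICR(CD-1), 8 weeks of age and kept on a standard chow, and the groups differed in segment alone, with no other treatment and no genetic change. The duodenum was the 2 to 3 cm that follow the stomach, the jejunum was taken midway along the small gut, the ileum was the part that ends at the caecum, and the colon was left undivided. Each segment was represented by 3 pools of 10 mice, numbered 1 to 3, and the total RNA of each pool was put on all 3 array sets, for 12 samples on 36 arrays. The deposited values are intensities scaled to a common mean, and the median of an array was 48.7 to 75.2 units on set A, 85.7 to 110.2 on set B and 85.45 to 104.5 on set C. The p-values below measure the spread between pools, and in whole tissue fewer cells of a type and less RNA per cell cannot be told apart.

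Several facts of the arrays touch the values below. The array of duodenum 3 on set C has a title that says duodenum and a source name that says jejunum; it was kept as duodenum, and results of set C are also given without it. The control signal of 18S ribosomal RNA fell into 2 classes, with 4 samples low (jejunum 2, jejunum 3, ileum 1 and ileum 3) and 8 high, so all duodenum and colon samples were in the high class. The actin control, whose 3′ signal divided by its 5′ signal is a measure of RNA quality, gave 1.41 to 1.84 in the duodenum on set A, 1.28 to 1.55 in the jejunum, 1.14 to 1.20 in the ileum and 1.30 to 1.43 in the colon. This ratio moved with segment, and its part in the results was not tested.

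The starts of acinar enzyme genes are known for a pair of short elements, an E-box (CANCTG) and a TGGGAAA box, that are bound together by the acinar factor complex of PTF1A with a partner and RBPJL. Promoter sequence from RefSeq was used for 9 of the 10 genes, with Spink1 left out, each 250 bases before to 50 bases after the start. The 5 shown are the 3 with both elements in exactly these letters (Prss2, Cpa1 and Cela2a), and Cela1 and Pla2g1b. Signal of Cela1 and Pla2g1b was also seen beyond the duodenum, and a link of signal with promoter letters was not tested. They lie, in GRCm38.p6, at chr6:41521526-41521825 (plus strand, Prss2), chr6:30638968-30639267 (plus strand, Cpa1), chr4:141825956-141826255 (minus strand, Cela2a), chr15:100687871-100688170 (minus strand, Cela1) and chr5:115465892-115466191 (plus strand, Pla2g1b). Each is written 5′ to 3′ on the strand of its gene, and capitals mark CANCTG and TGGGAAA, searched on both strands.
Prss2: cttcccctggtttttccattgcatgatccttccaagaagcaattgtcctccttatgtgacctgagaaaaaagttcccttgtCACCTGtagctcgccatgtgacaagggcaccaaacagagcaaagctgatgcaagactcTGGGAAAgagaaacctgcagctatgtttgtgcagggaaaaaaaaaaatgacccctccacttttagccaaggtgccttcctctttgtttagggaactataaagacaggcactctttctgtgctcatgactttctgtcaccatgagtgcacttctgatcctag
Cpa1: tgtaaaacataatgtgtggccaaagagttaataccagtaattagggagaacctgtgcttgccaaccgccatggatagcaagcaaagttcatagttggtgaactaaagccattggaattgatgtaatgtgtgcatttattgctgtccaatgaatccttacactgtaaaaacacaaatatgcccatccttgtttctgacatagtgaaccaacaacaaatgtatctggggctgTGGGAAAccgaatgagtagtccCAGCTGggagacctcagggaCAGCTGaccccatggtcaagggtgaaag
Cela2a: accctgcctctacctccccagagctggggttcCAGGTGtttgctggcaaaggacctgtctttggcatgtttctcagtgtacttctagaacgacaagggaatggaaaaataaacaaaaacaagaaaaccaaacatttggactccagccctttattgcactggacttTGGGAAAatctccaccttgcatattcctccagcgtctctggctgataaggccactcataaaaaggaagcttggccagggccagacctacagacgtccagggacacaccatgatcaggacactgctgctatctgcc
Cela1: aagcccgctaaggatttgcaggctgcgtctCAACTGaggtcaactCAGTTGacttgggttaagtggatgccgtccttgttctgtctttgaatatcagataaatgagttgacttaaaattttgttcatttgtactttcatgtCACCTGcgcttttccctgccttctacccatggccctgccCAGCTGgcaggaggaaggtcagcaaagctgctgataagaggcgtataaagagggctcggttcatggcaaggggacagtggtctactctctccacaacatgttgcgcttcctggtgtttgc
Pla2g1b: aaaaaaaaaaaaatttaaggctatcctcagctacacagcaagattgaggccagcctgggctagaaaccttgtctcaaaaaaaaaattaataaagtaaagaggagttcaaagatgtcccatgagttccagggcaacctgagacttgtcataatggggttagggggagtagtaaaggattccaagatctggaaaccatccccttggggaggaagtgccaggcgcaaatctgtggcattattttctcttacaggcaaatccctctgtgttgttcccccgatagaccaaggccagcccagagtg
CANCTG was found in 8 of the 9 promoters, beside 51.5% of 32544 mouse promoters of the same length, and Pla2g1b was the promoter without it. TGGGAAA was found in Prss2 (bases 140 to 146 of the stretch shown), Cpa1 (bases 231 to 237) and Cela2a (bases 166 to 172). That is 3 of 9, beside 8.03% of all promoters. Both elements were somewhere in the window of the same 3, beside 4.26%, and their spacing was not part of the search. CANCTG lay at bases 82 to 87 in Prss2 and 33 to 38 in Cela2a. In Cpa1 it lay after the start, at bases 253 to 258 and 273 to 278. The TATA-box letters TATAAA, searched the same way and not capitalised, were found in 3 of 9 (Prss2, Cpb1 and Cela1), beside 13.6%. In Cpb1 they lay after the start, at bases 286 to 291 of its window. None of these motifs overlapped another in the stretches shown. A match is a description of letters, and no match says only that these letters are not in the window. Versions of the elements with other letters were not searched for.

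Most of these transcripts were high in the duodenum, and those of Cpa1, Cela3b and Pnliprp1 were under the median of the array in every sample elsewhere (for Pnliprp1 on set A). In the duodenum against the mean of jejunum, ileum and colon, 11 of the 16 probe sets, of 8 of the 10 genes, were called higher at an adjusted p below 0.05, while 1.12% of all probe sets were. None of the 16 was called lower. The median difference over the 16 was 3.51 on the log2 scale of intensity plus 16 units, against 0.0008 over all probe sets, and the range was −0.55 to 8.63. Where the other segments were under the array median, the size of a difference depended on the added offset: with 1 and with 64 units in place of 16 it was 9.27 and 6.98 for Prss2, 9.35 and 7.48 for Cela3b and 8.00 and 4.93 for Pnliprp1 on set A, all called. The genes without a called probe set were Pnliprp2 and Spink1, and Cpb1, Pnliprp1 and Pla2g1b each had a second, dimmer probe set on set C that was not called.

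The same 11 probe sets were those in which all 3 duodenum samples lay above all 9 other samples, which held for 1.15% of all probe sets. Against single segments, 10 were called higher than in the jejunum (0.58% of all), 11 than in the ileum (0.97%) and 12 than in the colon (2.65%). These comparisons share the duodenum samples. The probe set missing against the jejunum was that of Pla2g1b on set A, and the one added against the colon was Pnliprp2.

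**Figure D1:**
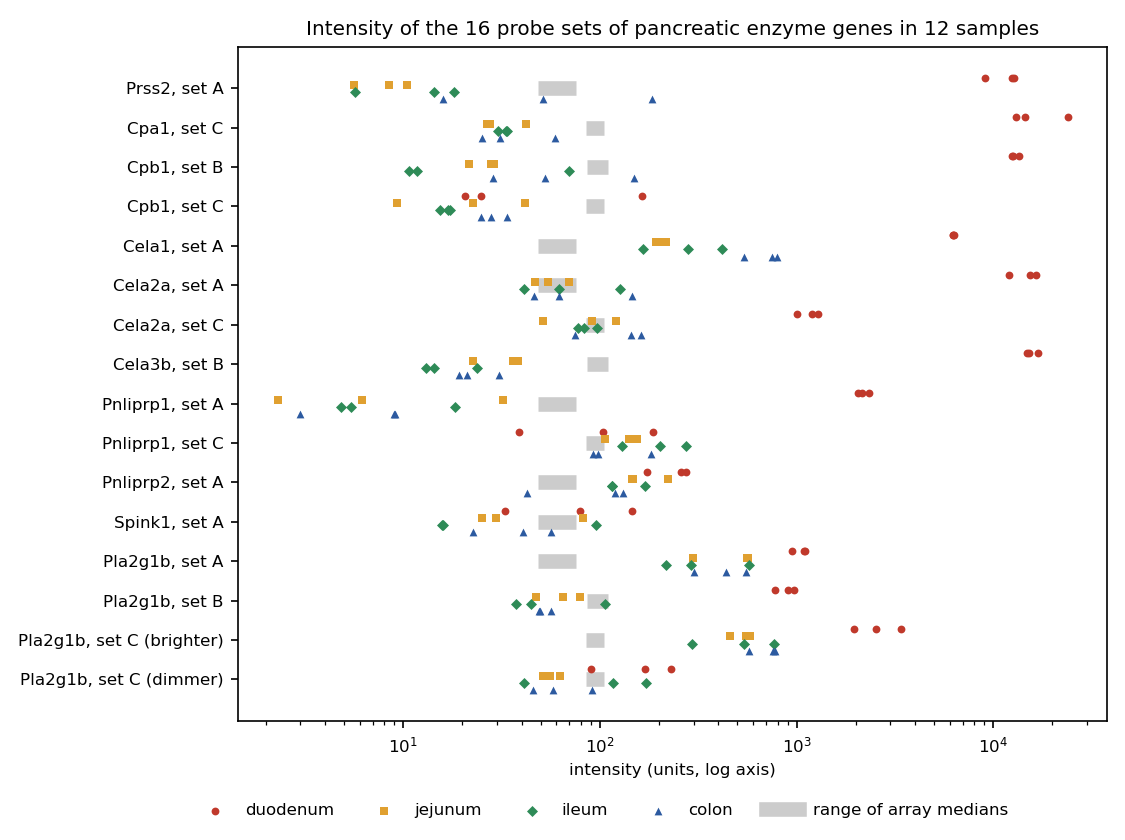
Intensity (units, log axis) of each of the 16 probe sets in the 12 samples, with circles for duodenum, squares for jejunum, diamonds for ileum and triangles for colon, and grey bars for the range of the array medians of that array set. For 11 probe sets the 3 duodenum points lie to the right of the other 9.

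Prss2 encodes the trypsinogen from which enteropeptidase makes active trypsin. Its probe set on array set A (92873_f_at) gave 9055.1, 12782.6 and 12432.1 units in duodenum 1, 2 and 3. Jejunum 1, 2 and 3 gave 10.4, 8.5 and 5.6 units and the ileum pools 5.7, 18.2 and 14.3, all under the array medians. In the colon it gave 51.5, 184.8 and 16 units, so only colon 2 was above its array's median of 73.2. The duodenum pools were far above every other sample, and the groups did not overlap. The difference from the mean of the other segments was 8.25 ± 0.38 (SE) on the log2 scale (adjusted p = 3.61e-09). On the linear scale the duodenum was at least 203-fold above the jejunum and at least 159-fold above the ileum. Such a bound sets the duodenum mean against the mean of, per array, the higher of the array's median and the dim value.

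The suffix _f_at marks a probe set whose probes match several genes of a family, so the Prss2 value can hold RNA of other trypsinogens. Of the probe sets left out because they name several trypsin genes at once, 2 were also high in the duodenum and low elsewhere. Their duodenum means were 14572 ± 3333 and 12435 ± 1497 units (SD, n = 3), and the third had 37.3 ± 7.30 units. In the colon the brighter pair gave 50.2, 156.9 and 14.1 units and 208.7, 373.4 and 214.0 units, with colon 2 the highest in both.

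The elastases are serine proteases that cut after small residues, and they were split in their reach. Cela3b, on set B (162530_at), gave 16843.6, 14852.4 and 15248.9 units in the duodenum and 13.1 to 38.3 units in the 9 other samples. Its difference was 8.63 ± 0.24 (adjusted p = 8.39e-12), and the duodenum was at least 173-fold above the jejunum, 152-fold above the ileum and 146-fold above the colon. All 9 samples outside the duodenum were under their array's median.

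Cela2a, on set A (94037_at), gave 12044.0, 16444.7 and 15399.9 units in the duodenum. Outside it the values were 54.2, 46.6 and 69.3 units for the jejunum, 41.2, 126.0 and 61.7 for the ileum and 46.3, 145.0 and 62.1 in the colon. Jejunum 3, ileum 2 and colon 2 thus stood above their array medians of 53.2, 75.2 and 73.2, while the other 6 samples did not. The difference was 7.45 ± 0.28 (adjusted p = 3.37e-10). The second probe set of Cela2a, on set C (167024_at), gave 1204.6, 1006.6 and 1291.9 units in the duodenum and 51.5 to 161.4 outside it, with a difference of 3.40 ± 0.30 (adjusted p = 1.02e-05), or 3.33 without duodenum 3 on that set. Both probe sets of the gene were highest in the duodenum and had colon 2 as the highest of the other samples.

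Cela1, the elastase I of the rodent pancreas, had a wider reach. It gave 6213.5, 6322.7 and 6225.6 units in the duodenum on set A (93783_at). It gave 217.6, 193.5 and 206.9 units for the jejunum, 165.4, 418.0 and 281.1 for the ileum and 746.4, 796.7 and 537.4 in the colon. All 12 values were above the median of their array, and the 3 colon pools were above all 6 pools of jejunum and ileum. The difference of the duodenum from the other segments was 4.15 ± 0.20 (adjusted p = 5.27e-09). The duodenum mean of 6254 ± 59.9 units (SD, n = 3) was 30.4 times the jejunum mean, 21.7 times the ileum mean and 9.02 times the colon mean.

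The carboxypeptidases trim residues from the carboxyl end of peptides, Cpa1 the aromatic and aliphatic ones and Cpb1 the basic ones. Cpa1, on set C (165431_at), gave 23863.1, 14437.6 and 13113.3 units in the duodenum. It gave 25.2 to 58.9 units in the other 9 samples, all under their array's median. The difference was 8.39 ± 0.28 (adjusted p = 6.77e-10), and 8.55 (adjusted p = 1.54e-08) without duodenum 3 on set C. The duodenum was at least 183-fold above the jejunum and at least 172-fold above both ileum and colon. The value of 13113.3 units on the array of duodenum 3, whose source name says jejunum, lay near those of the other duodenum arrays and far from the 26.6 to 41.9 units of the jejunum.

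Cpb1, on set B (162535_at), gave 13447.1, 12651.1 and 12482.9 units in the duodenum. It gave 21.6, 28.8 and 27.8 units for the jejunum, 10.7, 11.8 and 69.9 for the ileum and 52.7, 148.6 and 28.5 in the colon. Only colon 2 was above its array's median, which was 105.1 units. The difference was 7.98 ± 0.38 (adjusted p = 2.91e-09), with the duodenum at least 142-fold above the jejunum and 125-fold above the ileum. The second Cpb1 probe set, on set C (169359_at), was dim. It gave 24.8, 20.5 and 164.6 units in the duodenum and 9.3 to 41.8 elsewhere, and its difference was 0.76 ± 0.42 (adjusted p = 0.535). Without duodenum 3 on that set the difference was 0.02, so its higher duodenum mean came from that 1 array.

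**Figure D2:**
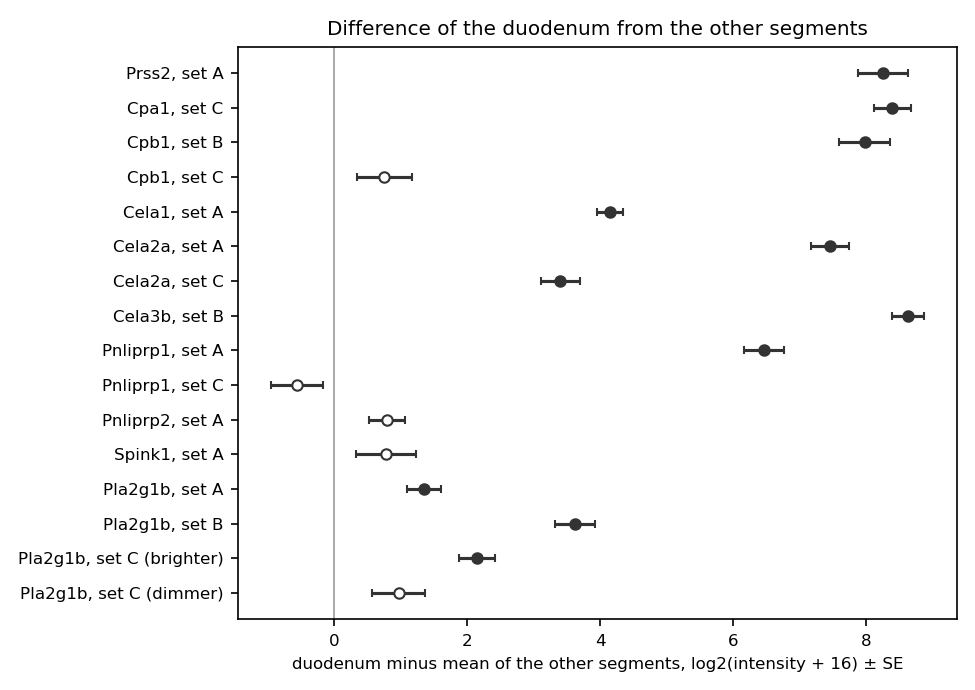
Difference of the duodenum from the mean of jejunum, ileum and colon, in log2(intensity + 16), for each probe set, with the standard error as bars; filled points were called at an adjusted p below 0.05. Among filled points the differences run from 1.36 for Pla2g1b on set A to 8.63 for Cela3b.

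Among the lipid-digesting members the picture was mixed. Pnliprp1 and Pnliprp2 are neighbouring genes on chromosome 19 that encode relatives of pancreatic lipase, of which Pnliprp2 acts on galactolipids and phospholipids and Pnliprp1 has little known lipase activity. Pnliprp1 on set A (92601_at) gave 2325.7, 2156.3 and 2061.7 units in the duodenum and 2.3 to 32.2 units in the other 9 samples, all under their array's median. The difference was 6.47 ± 0.30 (adjusted p = 3.74e-09), and the duodenum was at least 39.2-fold above the jejunum, 30.7-fold above the ileum and 29.5-fold above the colon.

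The other Pnliprp1 probe set, on set C (166923_at), did not share this pattern. It gave 103.7, 38.7 and 186.8 units for the duodenum, 106.4, 139.9 and 154.9 for the jejunum, 275.3, 129.5 and 202.1 in the ileum and 181.0, 98.0 and 92.0 in the colon. It was above the array median in all pools of jejunum, ileum and colon and in 2 of 3 duodenum pools, and its difference was −0.55 ± 0.39 (adjusted p = 0.671). The 2 probe sets annotated to this gene thus went different ways, and which of them follows its messenger RNA was not tested.

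Pnliprp2 (160070_at, set A) spanned a narrow range over the segments. It gave 273.1, 173.4 and 259.4 units for the duodenum, 221.2, 147.9 and 145.1 for the jejunum, 169.8, 114.7 and 115.2 in the ileum and 131.5, 119.9 and 42.5 in the colon. All but colon 3 were above their array's median. The difference of duodenum from the rest was 0.80 ± 0.27 (adjusted p = 0.197). Against the colon alone it was 1.23 ± 0.33 (adjusted p = 0.0403), and without colon 3 this became 0.80 (adjusted p = 0.176), no longer called.

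Pla2g1b, which frees fatty acids from phospholipids after trypsin activates it, had 4 probe sets that ranked the segments alike at the top but differed in size. On set B (162522_f_at) it gave 969.8, 906.7 and 777.3 units in the duodenum and 37.5 to 105.7 units elsewhere, a difference of 3.62 ± 0.30 (adjusted p = 1.39e-06). The brighter one of set C (168078_f_at) gave 2542.0, 3407.1 and 1969.2 units in the duodenum and 292.6 to 774.8 elsewhere, a difference of 2.15 ± 0.27 (adjusted p = 4.37e-04), or 2.34 without duodenum 3 on that set. The one of set A (160120_i_at) gave 952.6, 1109.3 and 1086.5 units in the duodenum and 216.3 to 575.9 elsewhere, a difference of 1.36 ± 0.26 (adjusted p = 0.00986). In these 3 the duodenum did not overlap the other segments. The dimmer one of set C (165917_r_at) gave 170.3, 90.6 and 229.9 units in the duodenum and 41.0 to 172.4 elsewhere, with overlap, and 0.97 ± 0.40 (adjusted p = 0.323).

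The Pla2g1b probe sets also disagreed on the other segments. Those of set A and the brighter one of set C were above the array median in all 12 samples, while the one of set B was under it in all jejunum and colon pools. The one of set B and the brighter one of set C have the suffix _f_at, so they can hold RNA of related genes, as for Prss2. The call on set A depended on single samples and on the 18S class. Without duodenum 2 it was 1.32 (adjusted p = 0.0719), without duodenum 3 it was 1.33 (adjusted p = 0.0657), and when the fit took the 18S class as a block it was 1.01 (adjusted p = 0.061). Its difference from the jejunum alone was 1.17 ± 0.32 (adjusted p = 0.122). The calls against the ileum (1.61, adjusted p = 0.0135) and the colon (1.29, adjusted p = 0.0243) were lost in 6 alternatives each, without duodenum 2 or duodenum 3 among them.

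Spink1, the inhibitor that acinar cells pack with trypsinogen to hold stray trypsin in check, did not stand out. Its probe set on set A (96630_at) gave 33.0, 146.3 and 79.5 units for the duodenum, 82.1, 25.0 and 29.6 for the jejunum, 15.8, 95.5 and 16 in the ileum and 56.6, 22.6 and 40.5 in the colon. The groups overlapped, and the difference was 0.78 ± 0.45 (adjusted p = 0.551). In no segment were all 3 pools above the array median, so by this probe set the gene was not seen in any segment.

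Which members were seen outside the duodenum was read from a level above the array's median in all 3 pools of a segment, with no test. By this count 12 of the 16 probe sets were seen in the duodenum, where 38.4% of all probe sets were. In the jejunum 5 were seen (39.5% of all): those of Cela1 and Pnliprp2, the set C probe set of Pnliprp1, and the Pla2g1b probe sets of set A and the brighter of set C. The ileum had 5, the same ones (39.2% of all), and the colon had 4, without Pnliprp2 (41.0% of all). Seen in the duodenum and in no other segment were Prss2, Cpa1, Cpb1 on set B, both probe sets of Cela2a, Cela3b, Pnliprp1 on set A and Pla2g1b on set B. Of these, Cpa1, Cela3b and Pnliprp1 on set A were under the array median in all 9 other samples, and the others had some of these samples above it. Prss2 and Cpb1 on set B had colon 2 above it, Cela2a on set A had jejunum 3, ileum 2 and colon 2, and Pla2g1b on set B had ileum 2. Cela2a on set C had 2 of 3 jejunum pools and 2 of 3 colon pools above it. If 2 of 3 pools were enough to be seen, the counts were 15 in the duodenum and 6 each in the jejunum, ileum and colon.

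Among the segments other than the duodenum, Cela1 was higher in the colon than in the jejunum and ileum. Of the 16 probe sets, 2 were called higher in the colon than in the mean of both, Prss2 and Cela1, and 3.99% of all probe sets were, so the count is read against that share. Cela1 differed by 1.47 ± 0.21 (adjusted p = 3.07e-04). Its colon level was 1.66 ± 0.25 above the jejunum (adjusted p = 3.37e-04) and 1.29 ± 0.25 above the ileum (adjusted p = 0.0061). The last of these became 0.95 (adjusted p = 0.0705) in a fit blocked on 18S class and 0.69 (adjusted p = 0.143) among the samples with high 18S signal, which leave 1 jejunum and 1 ileum sample.

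Against the single segments, 2 probe sets were called higher in the colon than in the jejunum (5.81% of all) and 1 than in the ileum (1.55% of all). The 2 were Cela1 and Prss2, and for Prss2 the call against the jejunum (1.65 ± 0.46, adjusted p = 0.0358) was lost in 15 of 24 alternatives, among them those without colon 2 (0.95, adjusted p = 0.127) and without any 1 of the duodenum samples. All 3 colon pools were above all pools of jejunum and ileum for 1 of the 16, Cela1, and for 6.08% of all probe sets. Between ileum and jejunum limma called 0 of 16 in either direction, and 2.78% of all; at an unadjusted p below 0.05 the counts were 0 of 16 and 13.7%. The order of levels for Cela1 was duodenum, colon, ileum, jejunum, and the steps from duodenum to colon and from colon to ileum passed the test. For Prss2, Cpa1, Cpb1, Cela2a, Cela3b and Pnliprp1 on their brighter probe sets, only the step from the duodenum to the next segment did; most of their values elsewhere were under the array median, so no order is read among the other segments.

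The colon call of Prss2 was lost under many settings. Its difference of the colon from the mean of jejunum and ileum was 1.54 ± 0.40 (adjusted p = 0.0302). It became 0.83 (adjusted p = 0.173) without colon 2, 1.62 (adjusted p = 0.0795) without colon 1, 1.5 (adjusted p = 0.0616) without jejunum 3 and 1.44 (adjusted p = 0.0565) without ileum 1. It became 1.33 (adjusted p = 0.184) in a fit blocked on 18S class, whose low samples were all jejunum and ileum, and 1.33 (adjusted p = 0.26) among the samples with high 18S signal. It was 0.83 (adjusted p = 0.0815) with an offset of 64, 1.35 (adjusted p = 0.0614) with centred arrays, and was not called without the intensity trend (adjusted p = 0.0553) or with only the segments compared (adjusted p = 0.0609).

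For more of these genes colon 2 was the highest sample outside the duodenum. In 7 of the 16 probe sets (Prss2, Cpa1, Cpb1 on set B, Cela1, both of Cela2a, and the brighter Pla2g1b of set C) it was the highest of the 9 samples outside the duodenum, and it was so for 10.2% of all probe sets. Ileum 2 was the highest in 4 of the 16, beside 17.1% of all. For Cpa1 the excess was small, 58.9 units in colon 2 against 25.2 and 30.9 in the other colon pools. Colon 2 was close to the next colon pool for Cela1 (796.7 against 746.4 units), Cela2a on set C (161.4 against 143.4) and the brighter Pla2g1b of set C (774.8 against 762.8). It was further above it for Prss2 (184.8 against 51.5), Cpb1 on set B (148.6 against 52.7) and Cela2a on set A (145.0 against 62.1). In colon 1, 2 and 3 the summed level was 126.7, 70.8 and 84.1 units for the Brunner's gland genes and 1016, 1264 and 1195 for the stomach genes, so colon 2 was the lowest for the former and the highest for the latter. By the count above, 0 of the 2 measured Brunner's gland genes and 3 of the 12 stomach genes were seen in the colon. Of the 11 other acinar products called in the duodenum, colon 2 was the highest sample outside it for Cel, Ctrb1 and Cuzd1 and not for the rest. Over the 16 measured genes of other acinar products it was 32868, 36708 and 31431 units, a sum carried in the colon by Dmbt1, Zg16 and Klk1 (means of 14500, 9040 and 7317 units), which were not called in the duodenum. The part of other tissue in the values of colon 2 was not tested.

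**Figure D3:**
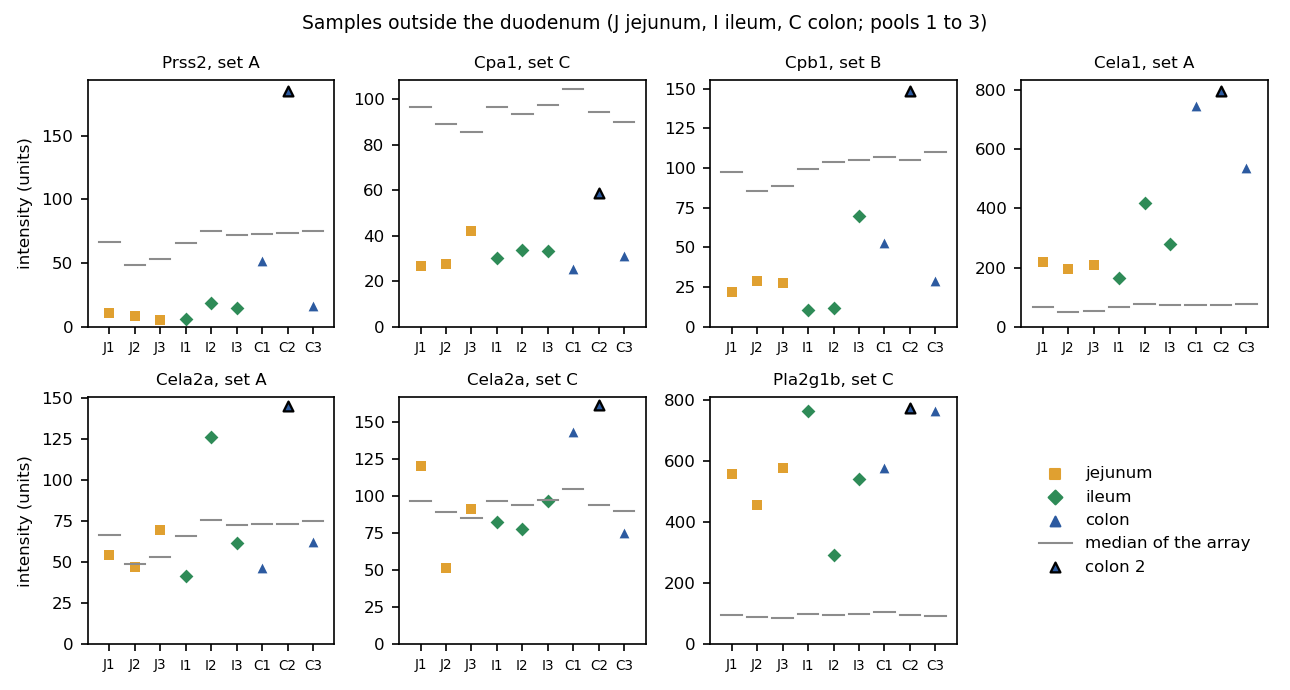
Intensity (units, linear axis from 0) of the 7 probe sets for which colon 2 was the highest of the 9 samples outside the duodenum, with squares for jejunum, diamonds for ileum, triangles for colon, a black outline for colon 2 and grey ticks for the median of each array. For Prss2, colon 2 is at 184.8 units and all other samples are at 51.5 or below; for Cela1 all samples are above their array's median.

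No duodenum pool was the highest throughout. Of the 11 probe sets with a duodenum mean over 500 units, duodenum 1 was the highest in 5, duodenum 2 in 5 and duodenum 3 in 1. The coefficient of variation over the 3 pools was 0.957% for Cela1, 4.0% for Cpb1 on set B, 6.13% for Pnliprp1 on set A and 6.74% for Cela3b. It was 18% for Prss2 and 34.2% for Cpa1. The share of the duodenum in the sum of the 4 segment means was 99.5% for Cela3b, 99.4% for Cpa1, 99.1% for Prss2, 99.0% for Cpb1 on set B, 98.6% for Pnliprp1 on set A and 98.5% for Cela2a on set A. It was 84.0% for Cela1 and 36.9% for Pnliprp2.

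Most of the other acinar products measured were higher in the duodenum too, with exceptions. Of 26 such genes listed, 16 had a probe set of 1 symbol, and 11 of these were higher in the duodenum, 0 lower and 5 not called, with a median difference of 2.85 against 0.0008 over all probe sets. Chymotrypsin C (Ctrc) had 8758 ± 868 units in the duodenum and 54.2 to 103 units as means of the other segments, with a difference of 6.72 (adjusted p = 1.35e-10). The bile salt-activated lipase gene Cel (5.69, adjusted p = 1.70e-10), the pancreatic ribonuclease gene Rnase1 (5.49, adjusted p = 8.76e-09) and Reg1, a secreted lectin-like protein of acinar cells (5.61, adjusted p = 7.20e-09), were also higher. Reg1 was spread further, with a duodenum mean of 19739 ± 3724 units and a jejunum mean of 3783 ± 2328. Named after their values were seen, the granule protein gene Sycn had 1633 ± 333 units in the duodenum and 1034 ± 380 in the colon but 28.9 and 19.9 in jejunum and ileum, and the probe set of the amylase gene Amy2a5 was at 11.4 ± 4.82 units in the duodenum and not called. Also named after their values were seen, and not called, 3 secretory genes that gut epithelium or other glands make too were at their highest outside the duodenum. Dmbt1 had 9858 ± 814 units in the duodenum and 14500 ± 1863 in the colon, Klk1 had 1664 ± 391 and 7317 ± 454, and Zg16 had 11903 ± 1660 units in the duodenum and 13292 ± 1518 in the ileum.

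Acinar factors and the secretory machinery gave a single call. Of 11 such genes, 1 was higher, 0 lower and 10 not called, with a median difference of 0.16. The called gene was Pdia2, the pancreatic protein disulfide isomerase, with 638 ± 70.6 units in the duodenum, 15.5 to 19.9 units as means of the other segments and a difference of 4.31 (adjusted p = 2.69e-07). Ptf1a and Rbpjl encode the factors of the complex described above, and Bhlha15 is another acinar factor. Their duodenum means were 47.4 ± 10.9, 38.5 ± 11.8 and 75.4 ± 15.3 units, and none was called. In no segment was any of them above the array median in all 3 pools, so these probe sets gave little signal anywhere. These 3 were named after their values were seen.

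Some genes of other pancreatic cells were called higher in the duodenum, and most were not. Of 12 islet genes 10 were measured, with 4 higher, 0 lower and 6 not called and a median difference of 0.02. Insulin (Ins2) had 1936 ± 271 units in the duodenum and 2.93, 19.9 and 23.5 in jejunum, ileum and colon, a difference of 6.15 (adjusted p = 1.01e-07). The other 3 were Slc2a2, a glucose transporter that the jejunum also had at 1598 ± 486 units, the factor Pdx1, which the duodenal epithelium also makes, and Iapp. Iapp was dim, with 30.8 to 51.8 units in the duodenum, under the array medians there. The islet hormone genes Gcg, Sst and Ppy, named after their values were seen, were not called, and enteroendocrine cells of the gut make these too. Of 7 pancreatic duct genes 5 were measured, 2 of them higher (Car2 and Muc1), 0 lower and 3 not called; the colon mean of Car2, at 5327 ± 334 units, was above the duodenum mean of 1551 ± 373, and Muc1 had 440 ± 50.6 units in the duodenum and 379 ± 100.3 in the colon. For none of the 5 did all duodenum samples lie above all others.

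Stomach and Brunner's gland genes stood beside these. Of 12 stomach genes 4 were higher (Gkn3, Gkn2, Tff1 and Atp4b), 0 lower and 8 not called. Atp4b was dim, with 20.2 to 47.2 units in the duodenum, under the array medians there. The summed level of the list was 32125 to 56213 units in the duodenum, 1074 to 1527 in the jejunum, 919.9 to 1257 in the ileum and 1016 to 1264 in the colon. Gkn3 made up most of it in the duodenum, with 21071 to 46645 units there. Among the genes not called, and named after their values were seen, were Lipf at 6.70 ± 3.62 units and Muc5ac at 12 ± 2.20. Of 3 Brunner's gland genes 2 were measured, and Tff2, which the stomach makes too, had 18749 ± 3313 units in the duodenum with a difference of 8.89 (adjusted p = 3.37e-10), while Egf was not called. The summed level of the islet genes was 4676 to 5037 units in the duodenum, and their highest value elsewhere was 3251 units, in the jejunum. There Slc2a2 and Sst had means of 1598 and 851 units and made up most of it, while Ins2 had 2.93. That of the other acinar products was 90734 to 104325 units in the duodenum and up to 36708 elsewhere, where Dmbt1, Zg16 and Klk1 made up most of it in the colon. The part of pancreatic, gastric or Brunner's gland tissue in the duodenum samples in these results was not tested.

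Of the genes that activate trypsinogen or govern its release, 5 of 6 were measured, and 1 was higher, 0 lower and 4 not called. Cck had 754 ± 143 units for the duodenum, 562 ± 52.1 for the jejunum, 107 ± 22.7 in the ileum and 46.3 ± 26.8 in the colon, a difference of 2.25 (adjusted p = 2.44e-05). Enteropeptidase (Tmprss15), which starts the activation of the trypsinogen that Prss2 encodes, had 89.8 ± 17.6 units in the duodenum and 25.3 to 35 units as means elsewhere, with 1.32 (adjusted p = 0.151), and was not called. Cck thus reached into the jejunum, where Prss2 had 8.17 ± 2.42 units.

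Lists of gut cell types were set beside these. Enterocyte genes numbered 7, with 3 higher (Alpi, Fabp1 and Lct), 0 lower and 4 not called, and a median of 0.34. Only for Alpi did all duodenum samples lie above all others. Lct had its highest mean in the jejunum, 8091 ± 691 units, against a duodenum mean of 3082 ± 160. Fabp1 had a jejunum mean of 12518 ± 4858 units, close to its duodenum mean of 13205.5 ± 1408. The colon means of Lct and Fabp1 were 34.8 and 10.2 units. Of 10 Paneth cell genes 7 were measured, with 0 higher, 1 lower (Itln1) and 6 not called; Paneth cells make their own secretory phospholipase, Pla2g2a, a relative of Pla2g1b. For 6 mast cell genes, which include the carboxypeptidase Cpa3, limma called 0. All 6 smooth muscle genes were lower in the duodenum than in the mean of the other segments, with a median of −1.24. Their summed level was 3988 to 5005 units in the duodenum and 4250 to 7181 in the jejunum, so these 2 segments overlapped. It was 7949 to 9865 units in the ileum and 23260 to 27418 in the colon. The part of less muscle in the duodenum samples in the values of the enzyme genes was not tested.

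**Figure D4:**
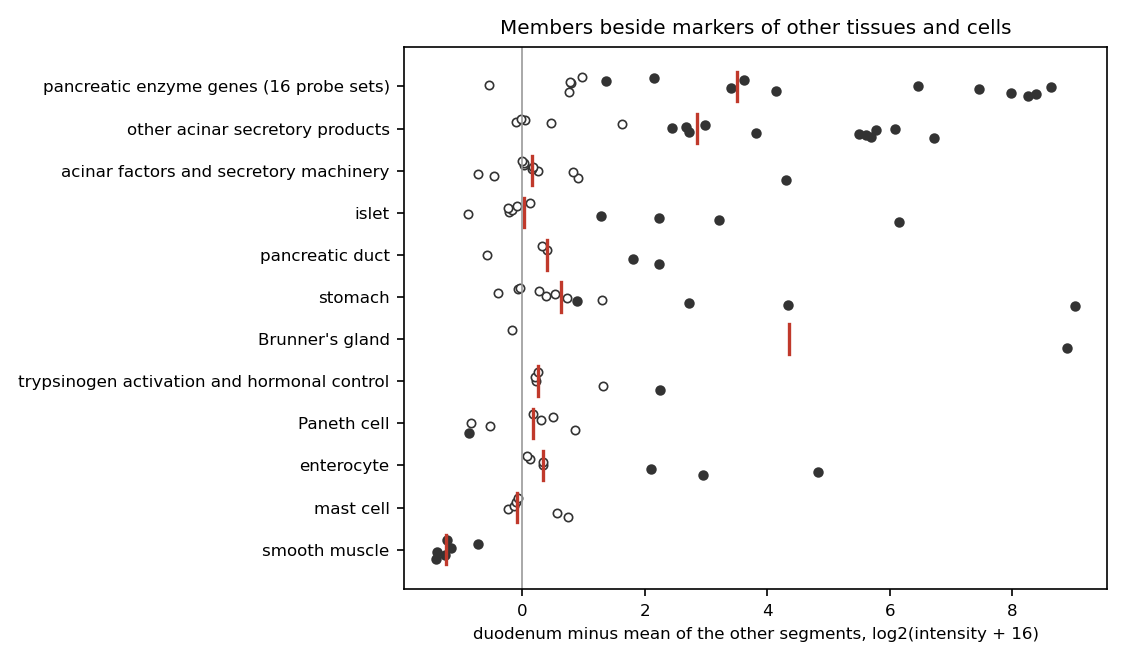
Difference of the duodenum from the mean of the other segments, in log2(intensity + 16), for the 16 probe sets of the pancreatic enzyme genes and for 1 probe set per gene of 11 marker lists; filled points were called at an adjusted p below 0.05 and red lines mark medians. The medians are 3.51 for the enzyme genes, 2.85 for other acinar products and −1.24 for smooth muscle.

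The genes most like each member were taken as the 3 other named genes with the highest Pearson correlation across the 12 samples on the same array set, given as a description with no p. The samples share segments, so any gene high in the duodenum alone scores high. For Cela3b they were Pdia2 (r = 0.998), Ctrc (0.996) and 2310057J18Rik (0.986), and for Cpb1 the same 3 genes (0.971, 0.970 and 0.960). For Prss2 they were 2210010C04Rik (0.990), Tff2 (0.988) and Cel (0.987), and for Cela2a they were 2210010C04Rik (0.993), Ins2 (0.992) and Cel (0.988). Cpa1 was nearest to Ugt2b38 (0.995), Gkn3 (0.991) and 2210010C04Rik (0.987), Pnliprp1 to Tff2 (0.987), S100g (0.985) and Akp3 (0.983), and Cela1 to Tff2 (0.969), 2210010C04Rik (0.966) and Ins2 (0.965). The lists for Pla2g1b on set A (Ctrl, 0.930; Pcx, 0.901; Slc19a1, 0.894), Spink1 (Dyrk1b, 0.928; Car14, 0.928; Wdr75, 0.904) and Pnliprp2 (Igha, 0.871; Polr2i, 0.870; Txn1, 0.866) reached lower values, and of the 9 genes in them only Ctrl, a chymotrypsin-like protease, is an acinar product of the list above.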

How the data were processed

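Total RNA of 12 pools on 36 arrays was used. The deposited values are intensity values, scaled by the authors to a common mean, since the mean of each array without the outer 2% on each side was 200.05 to 200.19; the software is not given in the sources used here, and the tables hold no detection calls. The 66 control probe sets of each array set were left out. Symbols came from the platform annotation: 29131 probe sets had 1 symbol (29044 of them in the RefSeq gene table), 724 had several and 6846 had none.

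Log2 of intensity plus 16 was fitted per array set with limma 3.58.1 (R 4.3.3; Python 3.11.15), with 1 mean per segment, moderated variances with an intensity trend, 2-sided tests and Benjamini-Hochberg adjustment over all 36701 probe sets. The procedure was tested on simulated data. All probe sets of the 10 genes were named; from each marker list, the up to 4 genes with the smallest adjusted p. A gene of a list, and a member in the likeness ranking, was represented by its brightest probe set on set A, else B, else C. The members and lists were chosen with earlier results of these data known.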

Additional observations from a re-analysis of the deposited data

How the results depend on the processing

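The sizes of the duodenum differences moved with the offset, as given in the report, more than the calls did. Of the 11 probe sets called against the mean of the other segments, 10 were called under each of the 24 alternatives. These changed the offset, scaling, filter, variance model, samples, blocks or adjustment, and the exception was Pla2g1b on set A. Not all could change this result. The fit with only the segments compared is the main fit here, and leaving out duodenum 3 on set C does not alter the differences on sets A and B. No called difference changed sign. The count for the colon against the mean of jejunum and ileum, 2 in the report, became 1 with an offset of 64, with arrays centred on their median, without the intensity trend, with only the arrays of the segments compared, in a fit blocked on 18S class and with only the samples with high 18S signal, and ranged from 1 to 3 when single replicates were left out; the third gene, without ileum 3, was Cpb1. In each case with 1, Cela1 was the gene left. With the 75th percentile in place of the median, 3 probe sets were seen in the jejunum and 1 in the ileum, instead of 5 in each. Against single segments, fewer duodenum calls were made among the samples with high 18S signal: 8 against the jejunum, 10 against the ileum and 11 against the colon. Over all alternatives the counts were 8 to 11 against the jejunum, 10 to 11 against the ileum and 10 to 12 against the colon, with 10 for the colon without the intensity trend, without duodenum 1, without duodenum 3 and without colon 3. Deviations of same-numbered pools from their segment means correlated at −0.36 to 0.36. Whether such pools came from the same mice cannot be read from this. With the pool number as a replicate block the duodenum counts were 11 against the rest, 10 against the jejunum, 11 against the ileum and 12 against the colon. They were 0 for ileum against jejunum and 2 for the colon, so no count changed. Centring moved the median over all probe sets from 0.07 to −0.12 for colon against jejunum and from 0.06 to −0.07 for duodenum against jejunum. It moved the share of higher among all calls from 63.2% to 39.0% for colon against jejunum, from 58.2% to 41.3% for colon against the mean of jejunum and ileum, from 62.8% to 52.7% for duodenum against jejunum, from 53.1% to 63.1% for duodenum against ileum, from 44.3% to 55.8% for duodenum against colon and from 57.9% to 26.8% for ileum against jejunum. Values under the array medians carry little information on level, so differences among dim segments are limited by signal over background.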
